A study of Mus musculus with 6 samples.

Results

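The regulator of G protein signalling (RGS) genes Rgs1, Rgs2, Rgs3, Rgs10, Rgs14, Rgs16, Rgs18 and Rgs19 were followed in cultured mouse megakaryocytes, the parent cells of platelets, of 2 kinds: Gata-1 knock down and Gata-1 wild type. GATA-1 is a transcription factor of the erythroid and megakaryocyte lineages. Every probe set whose platform annotation named only one of these 8 genes was taken, which gave 18 of the 45101 probe sets of an Affymetrix mouse array, and the 8 genes are among 18193 that such probe sets name. Each kind had 3 arrays, called A, B and C, which makes 6 in all. Per the labels, all 6 samples came from progenitors of fetal livers at embryonic day 13.5, which were grown into megakaryocytes in differentiation medium and then collected on a gradient of bovine serum albumin. The sources used here do not give the strain, the means of the knockdown, or whether A, B and C were grown or taken separately. The p-values below therefore refer to the spread among these arrays, part or all of which may be technical.

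When an agonist binds its receptor, the alpha subunit of a G protein takes up GTP and signals until that GTP is hydrolysed. RGS proteins bind the active alpha subunit and speed up this hydrolysis, so that the signal ends sooner. In platelets, RGS18 and RGS10 act on the signals of receptors coupled to Gi and Gq, such as those for ADP, thrombin and thromboxane. The family is divided by the RGS domain and its flanking parts: RGS1, RGS2, RGS3, RGS16 and RGS18 belong to the R4 subfamily, RGS10 and RGS14 to R12, and RGS19 to RZ.

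The promoters of 5 of the 8 genes were listed in RefSeq (GRCm38.p6), with 8 start sites in all, and are shown for Rgs2 and Rgs10, the pair that fell in knockdown, and for the Rgs3 start whose promoter held a GATA match. Each sequence is the 250 bases before the start, from 5′ to 3′ on the gene's strand. Capitals mark, on either strand, the GATA letters, which are AGATAA or else TGATAA, and also the forms ending in G, which are AGATAG or else TGATAG, and the letters TGACG, which form part of the cAMP response element.
Rgs2, chr1:144004150-144004399, minus strand: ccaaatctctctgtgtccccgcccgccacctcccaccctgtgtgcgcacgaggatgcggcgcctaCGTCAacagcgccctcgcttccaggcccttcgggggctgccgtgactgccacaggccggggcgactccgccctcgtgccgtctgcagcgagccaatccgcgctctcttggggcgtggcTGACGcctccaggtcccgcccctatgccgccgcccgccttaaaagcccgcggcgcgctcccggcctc
Rgs10, chr7:128418173-128418422, minus strand: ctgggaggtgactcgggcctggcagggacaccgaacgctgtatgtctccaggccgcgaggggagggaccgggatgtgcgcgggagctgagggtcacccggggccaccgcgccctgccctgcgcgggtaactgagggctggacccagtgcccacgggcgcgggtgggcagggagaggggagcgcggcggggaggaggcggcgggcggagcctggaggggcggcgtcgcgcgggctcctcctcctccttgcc
Rgs3, chr4:62619422-62619671, plus strand: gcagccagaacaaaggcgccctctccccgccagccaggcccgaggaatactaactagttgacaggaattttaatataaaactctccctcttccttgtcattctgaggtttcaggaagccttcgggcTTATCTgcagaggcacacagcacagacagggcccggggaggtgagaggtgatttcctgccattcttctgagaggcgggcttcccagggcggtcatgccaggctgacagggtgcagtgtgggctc
A GATA match lay in 1 of the 8 listed promoters, that of Rgs3, at 118 bases from the start, and in 26.5% of 32851 promoters of the same length. TGACG lay in the Rgs2 promoter only, at 62 and 180 bases from the start, and in 17.8% of all. The G and C content was 72.4% for Rgs2, 76.4% for Rgs10, 66.4% for Rgs16, 48.4% and 56.8% for the Rgs3 starts and 54.4%, 64.8% and 74.8% for the Rgs19 starts, against a median of 52.4% over all promoters. A link between this content and the changes in knockdown was not tested. The matches are letters found in a window and were not tested as sites.

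On all 6 arrays the trimmed mean signal was 500.0, and the median signal lay between 101.6 and 137.8. The highest signal of the 27 bacterial control probe sets, taken as background, was 132 on knockdown B and 60.7 to 82.2 on the other arrays. Correlations between arrays of a group were at least 0.963. Gata1 read 153.5, 143.3 and 194.7 in knockdown A, B and C and 8723.7, 8246.5 and 8495.6 in wild type (log2 fold change -5.52 ± 0.12 SE, limma adjusted p 2.89e-09), as its labels state. All 12 megakaryocyte markers with a probe set were above background on all 6 arrays. Of these, 10 were lower in knockdown, Tubb1 most (log2 fold change -2.61), while Itga2b and Pf4 were not called. With 3 arrays a group, precision is limited by their number.

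Of the 8 RGS genes, each taken by its brightest probe set, 3 were higher in knockdown, 2 were lower and 3 did not pass the test. Rgs1, Rgs19 and Rgs18 rose and Rgs10 and Rgs2 fell, and no change reached 2-fold. The rises of Rgs19 and Rgs18 were each called on 1 of 2 probe sets, and neither was called under median centring. Among all 14230 genes tested, 295 were called at least 2-fold higher and 731 at least 2-fold lower. The test was limma with Benjamini-Hochberg adjustment at 0.05 over all probe sets. By it 35.5% of 14230 genes were called, 18.3% higher and 17.1% lower. The median log2 fold change was 0.15 over the 8 genes and 0.03 over all genes tested. Over probe sets, 14 of the 18 passed the filter on low signals and 7 were called, 3 higher and 4 lower. Among all 31526 probe sets tested 30.4% were called, 16.1% higher and 14.3% lower. With 8 genes, whether their share differs from these was not tested. In bulk RNA, fewer cells of a type and less RNA per cell cannot be told apart.

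Markers of other cell types moved between the groups as well. Among macrophage markers 12 of 13 tested were lower and 0 higher, with a summed signal of 8222 to 8294 in knockdown and 21570 to 22226 in wild type. Of 15 macrophage markers with a probe set, 11 were above background on all 6 arrays, and Marco and Cd163 were at or below it on all 6. Neutrophil and monocyte markers were lower for 9 of 13, with sums of 13404 to 15044 and 24138 to 25791, and erythroid markers for 3 of 8, with 1 higher and sums of 3681 to 3982 and 15448 to 15791. Of mast cell and basophil markers 8 of 13 were lower and 2 higher, the latter the progenitor genes Gata2 and Kit. The summed signal of the 13 was higher in knockdown, at 9027 to 9900 against 7428 to 8096. Yet 8 of them were at or below background on all knockdown arrays, and 0 on all wild-type arrays. Endothelial markers went both ways, with 5 of 10 higher and 3 lower (median log2 fold change 0.45) and sums of 9123 to 10313 in knockdown and 9454 to 9653 in wild type. Kdr, Tek, Tie1, Egfl7 and Eng rose, by 1.54, 1.56, 1.38, 1.41 and 0.82 on the log2 scale, while Pecam1, Esam and Lyve1 fell and Emcn was at or below background on all 6 arrays. Of hepatocyte markers 0 of 6 were higher and 1 was lower, with sums of 941 to 1066 and 1350 to 1558. Megakaryocyte markers were lower for 10 of 12, with sums of 108688 to 133781 and 162252 to 173099. RGS genes are also expressed in leukocytes and other cells, and the part of any of these cell types in the rises and falls of the RGS genes was not tested.

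**Figure D1:**
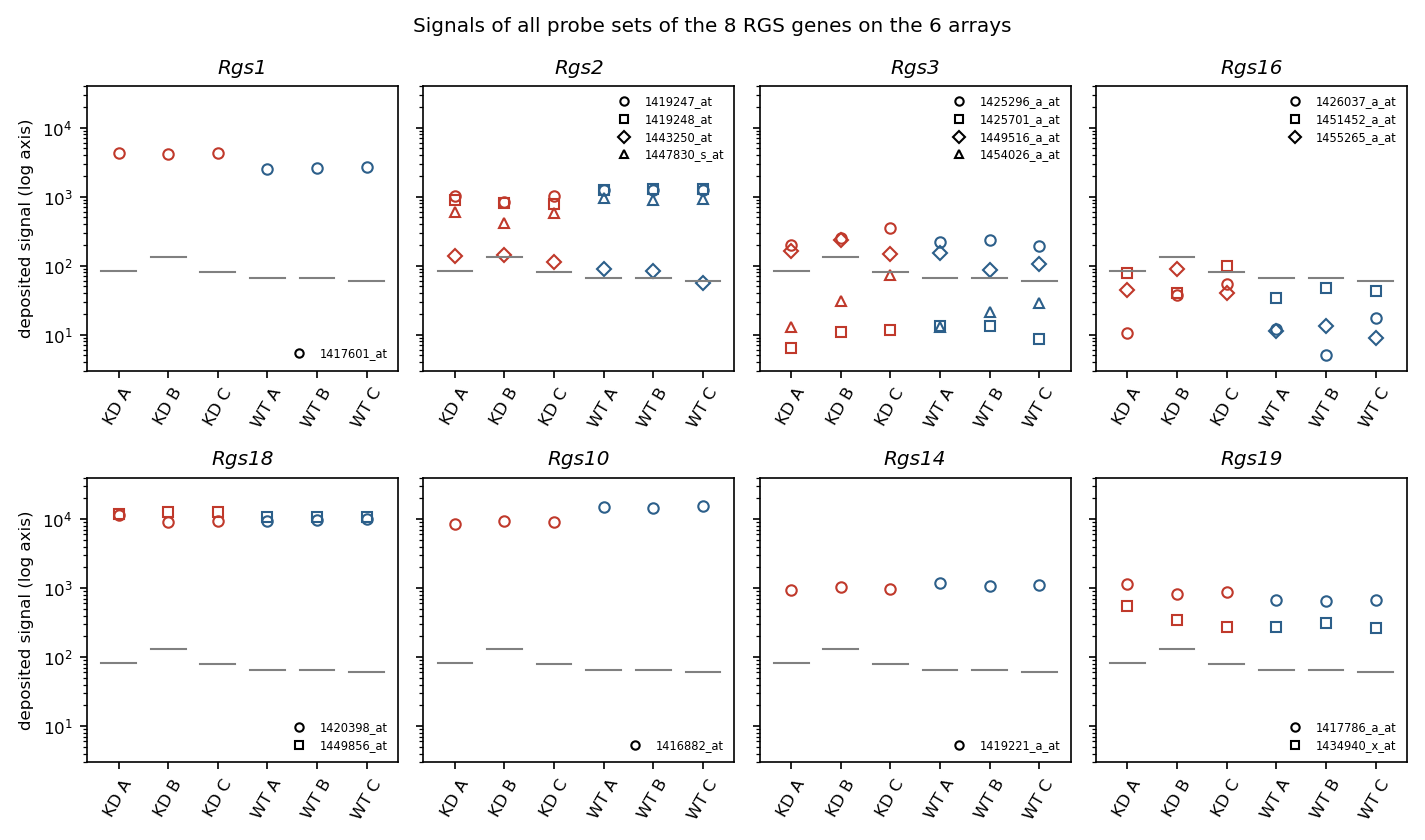
Deposited signal (log axis) of each of the 18 RGS probe sets on the 3 knockdown (red, KD) and 3 wild-type (blue, WT) arrays, with 1 marker shape for each probe set and grey bars for the highest bacterial control on each array. The Rgs1 points lie higher in knockdown and the Rgs10 points lower, without overlap, while Rgs16 lies around or below the grey bars.

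Rgs10 showed the clearest fall. RGS10 is a small protein that is little more than an RGS domain and acts on Gi alpha subunits. Its probe set, 1416882_at, read 8566.2, 9255.1 and 9217.1 in knockdown A, B and C and 15171.6, 14443.5 and 15247.2 in wild type A, B and C. All 3 knockdown arrays lay far below all 3 wild-type arrays, with a narrow spread in both groups. The mean went from 14954 ± 444 to 9013 ± 387 (SD, n = 3 each). The log2 fold change was -0.81 ± 0.04 (SE; limma adjusted p 2.08e-07), or 1.75-fold lower. It remained called under all 15 alternative settings, between -0.92 and -0.73.

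Rgs14, the other R12 gene of the set, encodes a protein that also carries a GoLoco motif, which holds Gi alpha subunits in the GDP-bound state, and Ras-binding domains. Its probe set, 1419221_a_at, read 953.1, 1043.0 and 985.7 in knockdown and 1193.0, 1089.6 and 1117.2 in wild type. The groups did not overlap, but the gap between knockdown B and wild type B was small. The log2 fold change of -0.20 ± 0.08 did not pass (limma adjusted p 0.0955, 95% interval -0.38 to -0.02). It was called at -0.25 without knockdown B (adjusted p 0.0443), at -0.20 with array weights (0.0444) and at -0.38 under median centring of the arrays (0.0179), and not under the other 12 settings.

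Rgs2 fell on 3 of its 4 probe sets. RGS2 favours Gq alpha subunits and is a target of the cGMP-dependent kinase, and its gene is known to respond quickly to stimuli. Probe set 1419247_at read 1031.2, 844.3 and 1018.5 in knockdown and 1255.2, 1256.0 and 1262.3 in wild type. The wild-type arrays were nearly alike, and knockdown B was the lowest of the 6. The mean went from 1258 ± 3.89 to 965 ± 104 (SD, n = 3), and the log2 fold change was -0.40 ± 0.09 (SE; limma adjusted p 0.00653). Probe set 1419248_at read 906.2, 815.5 and 782.7 in knockdown and 1254.5, 1290.5 and 1296.3 in wild type, a change of -0.62 ± 0.08 (adjusted p 0.000212). Probe set 1447830_s_at read 596.4, 415.9 and 580.2 in knockdown and 951.1, 883.2 and 908.0 in wild type, a change of -0.82 ± 0.13 (adjusted p 0.000914). On each of these probe sets every knockdown array was below every wild-type array, and each call held under all 15 alternatives.

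The remaining Rgs2 probe set, 1443250_at, went the other way. It was dim, at 135.9, 140.2 and 111.1 in knockdown and 89.1, 82.9 and 55.5 in wild type, and wild type C lay below background. Its log2 fold change of 0.40 ± 0.23 was not called (limma adjusted p 0.240, 95% interval -0.12 to 0.91). Which part of the transcript each probe set reads is not given in the sources used here.

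Rgs1 was the gene of the set that rose most clearly. RGS1 is known from lymphocytes, where it dampens chemokine receptor signals. Its probe set, 1417601_at, read 4280.7, 4167.9 and 4268.1 in knockdown and 2534.5, 2607.1 and 2669.4 in wild type. The groups were far apart and each was tight. The mean went from 2604 ± 67.5 to 4239 ± 61.8 (SD, n = 3), and the log2 fold change was 0.77 ± 0.05 (SE; limma adjusted p 2.42e-06), or 1.70-fold higher. It stayed called under all 15 alternatives, with its lowest value, 0.50, when arrays were centred on their medians. Of 9 lymphoid markers tested, 0 were higher and 1 was lower. The summed signal of the lymphoid markers was 1821 to 2514 in knockdown and 2727 to 2984 in wild type. Of 13 with a probe set, 3 were above background on all 6 arrays, Cd8a, Il7r and Nkg7. Pax5, Rag1 and Cd3d were at or below it on all 6. The part of lymphoid cells in the Rgs1 rise was not tested.

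Rgs18, the RGS gene best known from megakaryocytes and platelets, changed little. Probe set 1449856_at read 11931.0, 12789.3 and 12494.4 in knockdown and 10628.8, 10628.1 and 10737.6 in wild type. Knockdown was higher on each array, and the 3 wild-type signals were close to each other. The log2 fold change was 0.21 ± 0.04 (limma adjusted p 0.00307), or 1.16-fold higher. Under median centring it was 0.02 (adjusted p 0.876). The second probe set, 1420398_at, read 11360.5, 9059.2 and 9219.0 in knockdown and 9405.1, 9794.0 and 10158.1 in wild type. Here the groups overlapped, with knockdown A the highest and knockdown B the lowest. Its log2 fold change was 0.05 ± 0.09 and not called (limma adjusted p 0.764, 95% interval -0.16 to 0.25), and it was -0.19 with arrays centred on their medians. The highest signal on any probe set was 21182 to 32655 across the arrays.

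Rgs19, the RZ member, encodes a protein that binds the scaffold GIPC and acts on Gi-class alpha subunits. Probe set 1417786_a_at read 1142.0, 810.8 and 868.0 in knockdown and 677.2, 639.8 and 662.8 in wild type. Knockdown A was far above the others, and the lowest knockdown array was still above wild type. The log2 fold change was 0.43 ± 0.12 (limma adjusted p 0.0218). The call was lost without wild type A, B or C in turn (adjusted p 0.0568, 0.0793 and 0.0631, at 0.44, 0.41 and 0.44) and under median centring (0.28, adjusted p 0.258). Without knockdown A, B or C in turn it held (limma adjusted p 0.0247, 0.00958 and 0.0378, at 0.29, 0.52 and 0.48). Probe set 1434940_x_at read 541.9, 340.1 and 275.1 in knockdown and 275.7, 308.5 and 261.4 in wild type. Knockdown C lay among the wild-type values, and the change of 0.24 ± 0.21 was not called (adjusted p 0.450).

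Rgs3 and Rgs16, of the R4 subfamily, were dim, and no probe set of either was called. RGS3 acts on Gi and Gq alpha subunits and exists in several forms. Its probe set 1425296_a_at read 198.0, 249.7 and 349.6 in knockdown and 223.1, 235.6 and 194.3 in wild type, where the groups overlapped (log2 fold change 0.09 ± 0.19, limma adjusted p 0.775). Probe set 1449516_a_at read 162.2, 235.0 and 149.2 in knockdown and 151.9, 85.7 and 105.2 in wild type, also with overlap (0.39 ± 0.23, adjusted p 0.246). The other 2 Rgs3 probe sets were at or below background on all 6 arrays and were not tested.

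RGS16 is an inducible regulator of chemokine receptor signals. Of its 3 probe sets, 1451452_a_at was the only one tested, with 78.8, 39.6 and 100.3 in knockdown and 33.4, 48.0 and 43.1 in wild type. Knockdown C was the only array on which it lay above background (limma adjusted p 0.522). Probe set 1455265_a_at, left out by the filter, read 44.5, 88.0 and 39.9 in knockdown and 11.2, 13.5 and 8.9 in wild type, all at or below background, and was called higher with no filter (adjusted p 0.0204). The third, 1426037_a_at, was also at or below background on all arrays.

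**Figure D2:**
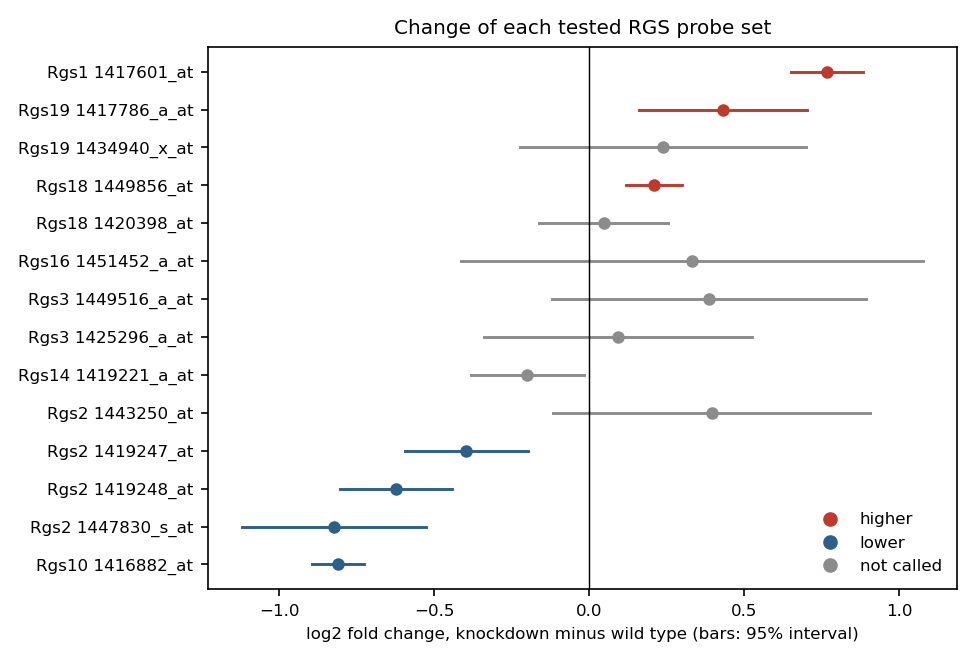
Log2 fold change (knockdown minus wild type, horizontal axis) of the 14 tested RGS probe sets from the limma fit, with bars for 95% intervals and colours for calls. Rgs10 and 3 Rgs2 probe sets lie below 0 and Rgs1 and 1 probe set each of Rgs19 and Rgs18 lie above it.

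The scaling of the arrays moved the RGS values. With median centring the log2 fold changes of all 14 tested probe sets were lower than after quantile normalization. With the values as deposited they moved in both directions, from 0.77 to 0.70 for Rgs1, from -0.81 to -0.73 for Rgs10 and from 0.43 to 0.48 for Rgs19. The median log2 fold change of all tested probe sets was 0.04 after quantile normalization, 0.15 with the values as deposited and -0.05 with arrays centred on their medians. Of all calls, 52.9% were rises after quantile normalization, 60.03% as deposited and 32.9% with median centring. With median centring 1 RGS gene, Rgs1, was called higher and 3 were called lower, Rgs10, Rgs2 and Rgs14. With the values as deposited the counts were 3 and 2, as in the main fit.

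**Figure D3:**
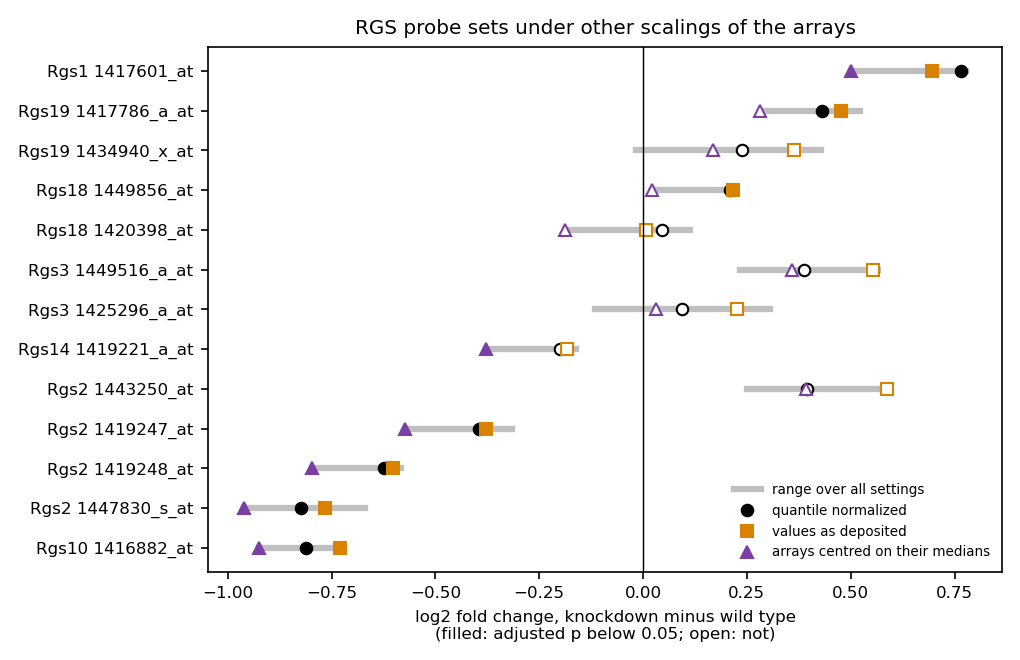
Log2 fold change of 13 RGS probe sets (vertical axis, Rgs16 left out) after quantile normalization (circles), with the values as deposited (squares) and with arrays centred on their medians (triangles), filled where the adjusted p was below 0.05, with grey bars for the range over all settings. Rgs10, Rgs1 and 3 Rgs2 probe sets are filled under each scaling, and Rgs18 1449856_at is open with median centring.

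A ratio of 2 signals on the same array does not depend on the scaling of that array. Such ratios, added after the values were seen, were formed between the brightest probe sets of the 5 called genes, in 10 pairs. Only the shift of a ratio between the groups can be read, since signals of different probe sets are not levels on one scale. The log2 ratio of Rgs18 over Rgs10 was 0.48, 0.47 and 0.44 in knockdown A, B and C and -0.51, -0.44 and -0.51 in wild type. It shifted by 0.95, or 1.93-fold. The genes were chosen as called on these same arrays, so the shifts are a description and no support for those calls. The log2 ratio of Rgs1 over Rgs10 was -1.0, -1.15 and -1.11 in knockdown and -2.58, -2.47 and -2.51 in wild type, a shift of 1.43 or 2.70-fold.

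Rgs1 and Rgs2 are near neighbours in the genome and moved in opposite directions. In the gene order of GRCm38.p6, the protein-coding genes Rgs2, Rgs13, Rgs1, Rgs21 and Rgs18 follow each other on chromosome 1 with no other protein-coding gene between them. The log2 ratio of Rgs1 over Rgs2 was 2.05, 2.30 and 2.07 in knockdown and 1.01, 1.05 and 1.08 in wild type, a shift of 1.09 or 2.13-fold. The ratio of Rgs18 over Rgs2 shifted by 0.61. Rgs13, between Rgs2 and Rgs1, was at or below background on all 6 arrays. The groups overlapped for Rgs1 over Rgs19, with a shift of 0.21, and for Rgs19 over Rgs18, with 0.28. Without knockdown A these shifts were 0.35 and 0.10, and without knockdown B that of Rgs1 over Rgs19 was 0.12. With an offset of 32 and quantile normalization, Rgs1 over Rgs19 shifted by 0.34.

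**Figure D4:**
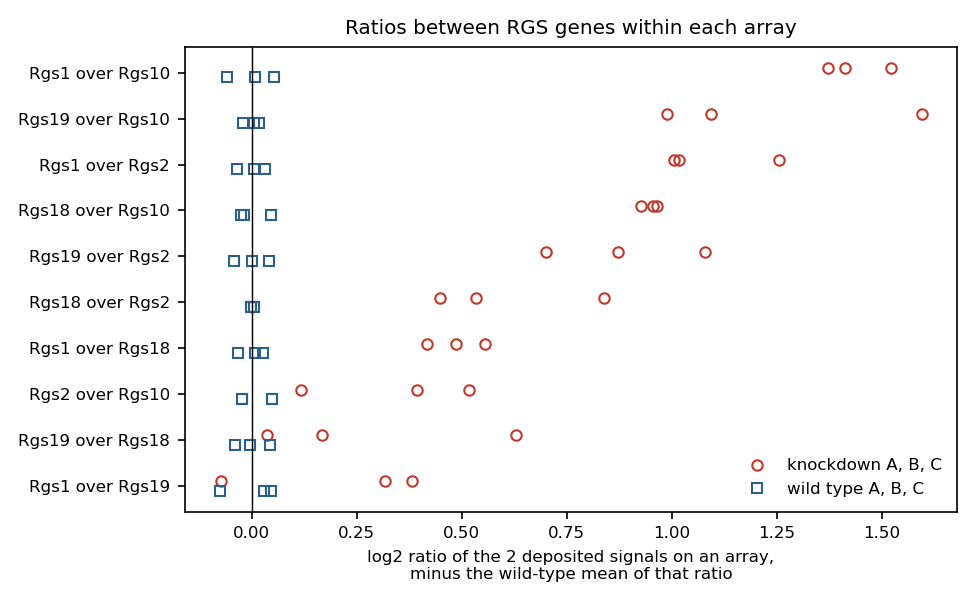
Log2 ratio of the deposited signals of 2 RGS genes on each array, minus the wild-type mean of that ratio, for the 10 pairs of called genes, with red circles for the 3 knockdown arrays and blue squares for the 3 wild-type arrays. Rgs1 over Rgs10 shows the largest shift of the 10, 1.43, and the groups overlap for Rgs1 over Rgs19 and Rgs19 over Rgs18.

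Beyond these 8 genes, the rest of the RGS family was mostly dim. Of 14 further family genes 11 had a probe set and 8 were tested, of which 0 were higher and 1 was lower (median log2 fold change -0.08). The one called was Rgs12, a large R12 protein with a GoLoco motif, as in RGS14. It read 591.5, 633.1 and 657.9 in knockdown and 867.7, 751.2 and 823.0 in wild type, without overlap (-0.41 ± 0.10, limma adjusted p 0.00903, and 0.0511 without wild type A). Among the proteins with a related RGS homology domain, 2 of 11 tested genes were higher and 3 lower (median -0.30), and 0 and 5 under median centring (median -0.50). The receptor kinase Grk5 changed by -0.79 ± 0.09 and the sorting nexin Snx13 by -0.74 ± 0.11. The Wnt pathway scaffold Axin1 changed by 0.49 ± 0.09, and median centring of the arrays ended that call (limma adjusted p 0.127).

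The G alpha subunits, taken over all classes, mostly did not pass the test: of 13 tested, 1 was higher, 2 were lower and 10 were not called (median -0.03). Under median centring 1 was higher and 4 were lower, and with the values as deposited 2 and 3. Gnaz, the Gi-class subunit Gz of platelets, which RGS19 and its RZ relatives favour, read 2714.3, 2994.1 and 2859.7 in knockdown and 7002.8, 6661.4 and 6468.3 in wild type. That was a fall on every array, by 1.15 ± 0.06 on the log2 scale (limma adjusted p 6.44e-07). Gnai2, a main Gi subunit, changed by only -0.18 ± 0.05, a call lost without wild type B, wild type C or knockdown C (adjusted p 0.0594, 0.105 and 0.0530). Gna15, a Gq-class subunit of blood cells, rose by 0.77 ± 0.15. Gnaq itself, named as the main Gq subunit of platelets after its value was seen, had -0.07 ± 0.08 on its brightest probe set and was not called (limma adjusted p 0.573). Of its 7 tested probe sets, 1 was called lower.

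Among 15 tested G beta and gamma subunits, 2 were higher and 4 lower (median 0.02). Under median centring 1 was higher and 5 were lower (median -0.02). The counts were 3 and 2 with the values as deposited, and 2 and 2 without wild type A or wild type B. Gng10 rose by 0.94 ± 0.06, and Gng12 changed by -0.81 ± 0.07. Gng2 read 259.6, 244.5 and 189.6 in wild type and lay above background on 1 of the 3 knockdown arrays (-1.31 ± 0.19). Gng4, within background on all knockdown arrays, was at least 1.33-fold lower (limma adjusted p 0.0248), a call lost without wild type A, wild type B or knockdown B (0.0758, 0.121 and 0.0513) as well as with the values as deposited (0.0553), no filter (0.0544), the replicate block (0.0511) and the mean of its probe sets (0.0894).

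Of 19 tested G protein coupled receptors of platelets and megakaryocytes, 8 were lower, 3 were higher and 8 were not called (median -0.16). The number higher was 6 without knockdown A and with array weights, 2 without knockdown B, under median centring, with no filter and with the floor at the bacterial controls, and 1 without knockdown C, wild type A or wild type C. The number lower was 7 to 9 in all of these. The lower ones included the ADP receptors P2ry12, coupled to Gi, at -2.71 ± 0.11, and P2ry1, coupled to Gq, at -2.67 ± 0.09. Receptors for thromboxane and thrombin, named after their values were seen, were split. The thromboxane receptor Tbxa2r rose by 0.82 ± 0.10, and the thrombin receptor F2rl3 changed by -0.47 ± 0.06. The thrombin receptors F2r and F2rl2 were not called on their brightest probe sets (0.11 ± 0.04 and -0.16 ± 0.06). Of the 2 tested probe sets of each, 1 was called, higher for F2r and lower for F2rl2. The chemokine receptor Cxcr4 changed by -1.81 ± 0.14 and the prostacyclin receptor Ptgir, which raises cAMP, by -1.21 ± 0.06. The effectors changed in both directions, with 6 of 21 higher and 7 lower (median 0.01), and 2 and 7 under median centring. Rasgrp2, the exchange factor that activates Rap1, changed by -2.90 ± 0.08, and the adenylyl cyclases Adcy5 and Adcy6 by -1.57 ± 0.10 and -1.17 ± 0.08. The cyclases did not all fall. Among others, named after their values were seen, Adcy9 changed by -0.18 ± 0.05. Adcy7 rose by 0.51 ± 0.06, with all 3 of its tested probe sets called higher. The phospholipase Plcb1 rose by 0.89 ± 0.10, on 1 of its 5 tested probe sets.

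Of 15 tested genes for binding partners and turnover of RGS proteins, 5 were higher and 2 lower (median 0.21). Prkg1, the cGMP-dependent kinase that phosphorylates RGS2 and RGS18, read 7759.1, 8911.9 and 8515.2 in knockdown and 1836.2, 1834.2 and 1825.3 in wild type. It rose on every array, by 2.22 ± 0.06 on the log2 scale, or 4.65-fold (limma adjusted p 4.15e-09). Ptpn6, the phosphatase SHP-1 that joins a platelet complex of spinophilin with RGS10 and RGS18, rose by 0.50 ± 0.07, though not with median centring (adjusted p 0.119). Ppp1r9a, a relative of spinophilin, rose by 0.57 ± 0.12 and the ubiquitin ligase Ubr2 by 0.56 ± 0.07. The split depended on the scaling, with 3 higher and 4 lower under median centring (median -0.02) and 7 and 3 with the values as deposited. Over all 102 tested genes of these 7 lists, 19 were higher and 27 lower, and with arrays centred on their medians 9 were higher and 35 lower.

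**Figure D5:**
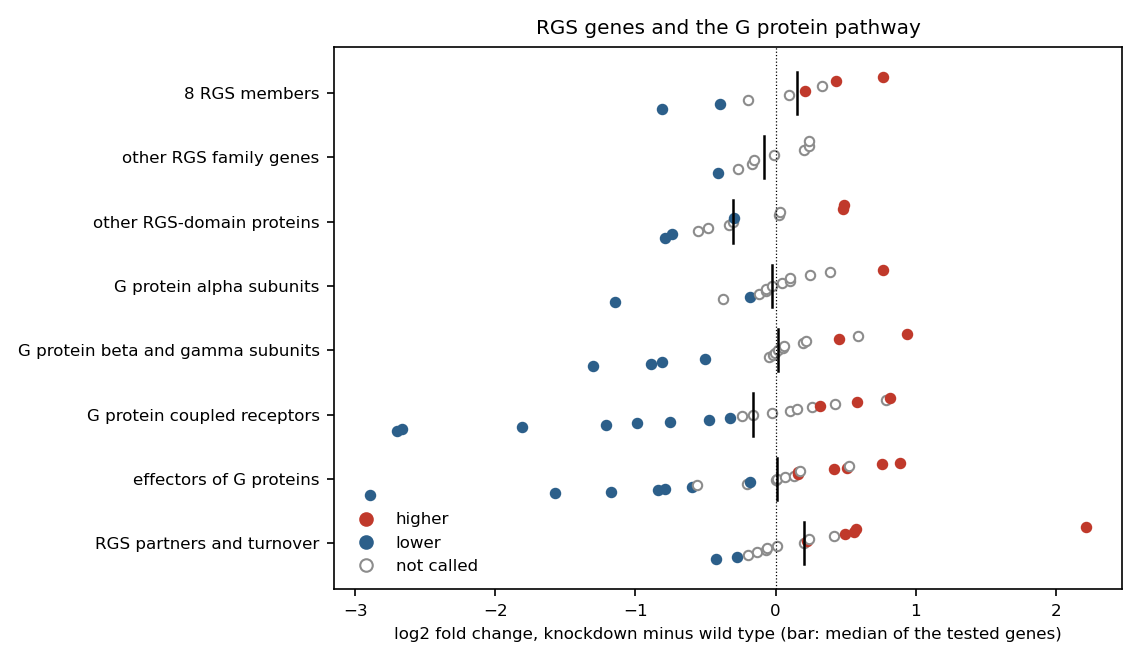
Log2 fold change (knockdown minus wild type, horizontal axis) of the 8 RGS genes and of the tested genes of 7 pathway lists, each by its brightest probe set, with filled points for called genes and a bar at the median of each list. The RGS genes lie within 0.81 of 0 on either side, while P2ry12, P2ry1 and Rasgrp2 lie below -2 and Prkg1 above 2.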

How the data were processed

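Software and genome build behind the signals were not given in the sources used here. The 6 samples were compared by group as their titles give it. The deposited table holds a signal intensity on a linear scale for each of 45101 probe sets, and its mean, without the highest and lowest 2%, was 500.0 for all 6 arrays, a scaling present in the table as deposited. Tests used log2(signal + 32) after quantile normalization, without 64 control probe sets and probe sets below the 30th percentile of mean log2 value. Fold changes with this offset understate changes of dim genes. limma 3.58.1 in R 4.3.3 was run with an intensity trend over 31526 probe sets, two-sided, with Benjamini-Hochberg adjustment at 0.05. The fit was also run on simulated data with changes in a small part of the probe sets. Such data cannot show how the normalization acts when many probe sets change.

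In the platform annotation 34945 probe sets had 1 gene, 932 had several and 9160 had none. Symbols were updated through gene numbers with GRCm38.p6, which was used otherwise only for gene order and for the RefSeq promoter sequences. A gene was taken by its brightest tested probe set. Probe sets at or below the highest of 27 bacterial controls were called within background. For a gene so on all knockdown arrays, the fold is a bound against that control, as means of normalized log2 values. Mean ± SD values are of deposited signals.

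The RGS genes and all gene lists were chosen with earlier results of these data known, and so were the tests. Named are Gata1, the 8 RGS genes and up to 4 called genes of each pathway list with the largest changes. Gnaq, Rgs13, Tbxa2r, the thrombin receptors, Adcy7, Adcy9 and the marker genes are named outside that rule. One gene that the rule names is not reported here. The alternatives were offsets of 1 and 100, values as deposited, median centring, no filter, a filter at the 50th percentile, a floor at the bacterial controls, the replicate letter as a block, array weights, the mean of a gene's probe sets and leaving out each array. Same-letter arrays of the 2 groups did not deviate together, so the letters were not taken as pairs.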

Additional observations from a re-analysis of the deposited data

How the results depend on the processing

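Rgs10, Rgs1 and 3 Rgs2 probe sets kept their direction and their call under each of the 15 alternatives run on probe sets. Of the 208 comparisons of an RGS probe set with its main value, 200 kept their side of the threshold, 5 lost a call and 3 gained one, and 0 called values reversed. The losses were those of Rgs19 1417786_a_at and Rgs18 1449856_at and the gains those of Rgs14, and the cause was not tested. With the mean of all tested probe sets of a gene, 3 RGS genes were called in place of 5, since Rgs19 (0.33, limma adjusted p 0.122) and Rgs18 (0.13, 0.137) were averaged with probe sets that were not called. The number of RGS probe sets called was 6 to 8 and that of all probe sets 7383 to 11560 over the alternatives, against 7 and 9577. With no filter an Rgs16 probe set within background was also called higher. With the replicate block, 7 RGS probe sets and 8757 of all were called, and 5 RGS genes as before. The block ended the calls of Gnai2 and Gng4 (limma adjusted p 0.0511 each) among the genes named. Correlations of deviations between same-letter arrays were -0.04, -0.02 and -0.01. Such values do not tell whether A, B and C were grown or taken separately. Called genes of the pathway lists numbered 35 to 57, against 46, and the call of Ubr2 was lost with the mean of its probe sets. The shifts of the 10 ratios kept their sign under each of 8 settings, with ranges of 0.10 to 0.40 for Rgs19 over Rgs18 and 0.12 to 0.35 for Rgs1 over Rgs19. All 8 settings kept the brightest probe set of each gene, and ratios with other probe sets were not formed. The log2 fold change of Rgs2 was -0.40 on its brightest probe set and -0.82 on 1447830_s_at, against -0.81 for Rgs10. The sign for Rgs2 over Rgs10 may therefore depend on the probe set. Signals near background limit what can be said of Rgs3 and Rgs16.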
